A study of Mus musculus with 4 samples.

Results

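The SLC22 organic ion transporters described here are 9 mouse genes, Slc22a2, Slc22a5, Slc22a6, Slc22a8, Slc22a12, Slc22a19, Slc22a23, Slc22a28 and Slc22a30, chosen by symbol out of 21046 genes measured in nuclei of kidney cortex. All 9 were found. Their levels were read in 6 clusters of proximal tubule nuclei, numbered 0, 1, 3, 5, 6 and 12 by the authors, against the other 17 clusters and between 4 genotypes. Each genotype was profiled once, as a droplet-based library in which barcodes called UMIs count single RNA molecules, so the study has no replicate and no test between genotypes. The library labelled Klf4deltaECNos3-/- carries the endothelial Klf4 deletion together with loss of Nos3, the library labelled Nos3-/- lacks Nos3 with Klf4 intact, the library labelled Klf4deltaEC has Klf4 deleted in endothelial cells with Nos3 intact, and the library labelled Klf4flox/flox carries the floxed allele without deletion and is the control. All carry the strain label C57BL/6J. Cre driver, mouse age and the number of mice per library are not stated in the sources used here. Klf4 encodes a transcription factor and Nos3 the nitric oxide synthase of endothelium, so neither genotype targets a transporter gene.

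SLC22 proteins are membrane carriers of the major facilitator superfamily that move organic cations, zwitterions and anions. In the proximal tubule, uptake carriers on the blood side load drugs, toxins and metabolites into the cell, and carriers and pumps on the urine side secrete or reclaim them. The organic anion carriers of the blood side trade their substrate for intracellular dicarboxylate, which sodium-coupled Slc13a3 helps to supply. Segments of the proximal tubule, called S1 to S3 from the glomerulus onward, are known to differ in these carriers, and several of them differ between male and female rodents.

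In the GENCODE annotation of mm10, 6 of the 9 genes lie on chromosome 19. Slc22a6, which encodes the organic anion carrier Oat1, spans chr19:8618039-8628299 on the plus strand, and Slc22a8, which encodes Oat3, spans chr19:8591254-8611835 on the plus strand beside it. Slc22a28 (chr19:8062209-8131982), Slc22a30 (chr19:8335371-8405111) and Slc22a19 (chr19:7673061-7711310) are on the minus strand of the same region. Slc22a12 spans chr19:6535845-6543032 on the minus strand. It lies inside Nrxn2 of the opposite strand, a gene that is also in the table. Slc22a2 is at chr17:12584132-12628488 on the plus strand, Slc22a5 at chr11:53864542-53891660 on the minus strand, and Slc22a23 at chr13:34179158-34345182 on the minus strand. Slc22a23 is the longest at 166 kb and Slc22a12 the shortest at 7.19 kb.

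Members close in sequence could share counts. The longest transcripts of Slc22a28 and Slc22a30 were 98.9% identical over 1485 aligned bases. Over all protein-coding transcripts of each gene, 48.9% of the 60-base windows of Slc22a28 also occurred in Slc22a30. Of the more numerous windows of Slc22a30, 28.3% occurred in Slc22a28. Of the 60-base windows of Slc22a5, 22.8% also occurred in Slc22a21, a paralog that is not a member. Levels of these 3 members are therefore uncertain to the extent that the authors' counting split or dropped shared reads. Reads of Slc22a12 and of Nrxn2 cannot be told apart where the counting did not use strand, which is not stated.

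The promoters of the neighbouring pair Slc22a6 and Slc22a8, and of the related pair Slc22a28 and Slc22a30, are shown because the members of each pair are compared below. RefSeq gave promoters for all 9 members on GRCm38.p6, the same assembly as mm10, and the 120 bases before the RefSeq start are printed, except for Slc22a30. Its 120 bases are those aligned to the Slc22a28 stretch and end 6 bases before its RefSeq start. In the first pair the capitals mark the letters GTTAAT, 1 side of the site bound by the proximal tubule factor HNF1, which begin 56 bases before the start of Slc22a6 (chr19:8617876-8617995, plus strand) and 81 bases before that of Slc22a8 (chr19:8593062-8593181, plus strand). The Slc22a8 stretch lies within the GENCODE gene, whose longer transcripts start upstream of the RefSeq start.
Slc22a6: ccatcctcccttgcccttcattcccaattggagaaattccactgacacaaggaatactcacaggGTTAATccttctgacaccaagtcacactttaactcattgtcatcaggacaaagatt
Slc22a8: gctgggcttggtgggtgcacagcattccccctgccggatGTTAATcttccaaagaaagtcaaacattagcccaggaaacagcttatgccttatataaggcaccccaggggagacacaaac

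In the second pair, Slc22a28 (chr19:8131983-8132102, minus strand) and Slc22a30 (chr19:8405112-8405231, minus strand), the capitals mark the 3 bases that differ.
Slc22a28: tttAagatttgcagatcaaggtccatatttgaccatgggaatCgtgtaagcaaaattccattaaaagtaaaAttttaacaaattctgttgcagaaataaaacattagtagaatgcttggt
Slc22a30: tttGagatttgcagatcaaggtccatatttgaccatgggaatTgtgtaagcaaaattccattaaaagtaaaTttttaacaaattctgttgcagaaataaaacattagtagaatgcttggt

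Over the 244 promoter bases that could be aligned without a gap, this pair was 97.5% identical. GTTAAT was searched on both strands of 300-base windows and was found in 2 of the 9 members and in 7.10% of 32851 RefSeq promoters. The full HNF1 site and the HNF4 site CAAAGTCCA were found in 0 of the 9 windows, against 3 promoters and 0.475% of promoters in all. The shorter HNF4 core CAAAG, which is contained in the HNF4 site, was in 7 of the 9 members and in 53.9% of all promoters. These are matches of letters in a short window and not measured binding.

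Levels are means over nuclei of UMIs per 10000 UMIs, as the authors deposited them. Nuclei numbers were inferred from the values and came to 5491 in the library labelled Klf4deltaECNos3-/-, 7004 in Nos3-/-, 6883 in Klf4deltaEC and 6766 in Klf4flox/flox. Proximal nuclei were 2170, or 39.5%, in Klf4deltaECNos3-/-, 3582, or 51.1%, in Nos3-/-, 3295, or 47.9%, in Klf4deltaEC and 3115, or 46.0%, in Klf4flox/flox. Effective UMIs per proximal nucleus were 4173 in Klf4deltaECNos3-/-, 2188 in Nos3-/-, 3528 in Klf4deltaEC and 4009 in Klf4flox/flox, so the library labelled Nos3-/- was the shallowest. At this depth 3 UMIs in the proximal nuclei of a library correspond to 0.00240 to 0.00383 per 10000. Brackets give 95% intervals that cover counting error only, exact Poisson for levels and Clopper-Pearson for ratios.

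The labelled deletions were not visible in the targeted genes. In cluster 10, where endothelial markers were highest, the Klf4 level was 0.824 (0.547 to 1.19) in the library labelled Klf4deltaECNos3-/-, 0.445 (0.264 to 0.702) in Nos3-/-, 0.779 (0.533 to 1.10) in Klf4deltaEC and 0.621 (0.406 to 0.910) in Klf4flox/flox. Nos3 stood at 2.07 (1.61 to 2.61) in Klf4deltaECNos3-/-, 1.52 (1.16 to 1.95) in Nos3-/-, 0.930 (0.659 to 1.28) in Klf4deltaEC and 1.26 (0.946 to 1.65) in Klf4flox/flox. No drop of either gene followed its label, so libraries are called by their labels and every direction is one between labelled libraries. All 4 libraries carried Y-linked RNA, with Uty at 2.80 to 3.01 and Xist at no more than 0.00627 in proximal nuclei.

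The library labelled Nos3-/- stood apart from the other libraries in its mitochondrial share and in markers of some other segments, not all in the same direction. Mitochondrially encoded genes made up 0.239% of UMIs in its proximal nuclei, against 0.529% in Klf4deltaECNos3-/-, 0.483% in Klf4deltaEC and 0.478% in Klf4flox/flox. The 3 markers of the distal convoluted tubule summed to 3.46 per 10000 in its proximal nuclei, against 0.464 in Klf4deltaECNos3-/-, 0.662 in Klf4deltaEC and 0.688 in Klf4flox/flox. The 2 markers of the connecting tubule summed to 11.2, against 0.795 in Klf4deltaECNos3-/-, 1.07 in Klf4deltaEC and 1.65 in Klf4flox/flox, and none of these 5 markers was at 0 in any library. The 5 thick ascending limb markers summed to 17.8 in Nos3-/-, against 12.5 in Klf4deltaECNos3-/-, 10.1 in Klf4deltaEC and 10.2 in Klf4flox/flox. Among them Umod went the other way, with a log2 ratio of -0.87 in Nos3-/- over Klf4flox/flox. Other lists were lowest in Nos3-/-. The 4 principal cell markers summed to 0.243 there, against 0.436 in Klf4deltaECNos3-/-, 0.349 in Klf4deltaEC and 0.355 in Klf4flox/flox. The 3 thin limb markers summed to 0.869, against 1.21, 1.11 and 1.03 in the same order. The other clusters of Nos3-/- in turn held more RNA of most proximal markers. The median of 14 such markers stood there at 39.5% of the proximal level, against 16.2% in Klf4deltaECNos3-/-, 19.4% in Klf4deltaEC and 16.7% in Klf4flox/flox. The proximal marker Kap did not follow. In cluster 2 it stood at 53.0% in Nos3-/-, against 51.7%, 123% and 91.2% in the same order. The endocytic receptor gene Lrp2, also a proximal marker, stood in the other clusters of Nos3-/- at 46.2% of its proximal level, against 15.9% in Klf4deltaECNos3-/-, 19.1% in Klf4deltaEC and 17.6% in Klf4flox/flox.

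The proximal label was checked against 14 proximal tubule markers. Averaged over these markers, each scaled to its highest cluster, clusters 0, 1, 3, 5, 6 and 12 stood at 70.5%, 53.2%, 67.1%, 80.5%, 75.7% and 58.1%. The highest of the other 17 clusters was cluster 7 at 47.4%, followed by clusters 13 and 22 at 35.3% and 34.6%. Within the proximal clusters, 6 markers of S1 averaged 100% in cluster 3 and 62.3% in cluster 5, while 6 markers of S3 averaged 96.5% in cluster 1 and 56.9% in cluster 0. Cluster 12 was shallow, with a median of 966 to 1240 UMIs per nucleus, held 118 to 253 nuclei per library and had the highest Kap, the androgen-regulated kidney protein gene. The marker genes of injured proximal tubule, Havcr1, Lcn2 and Vcam1, summed to no more than 0.0355 in the proximal nuclei of any library.

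Most members were higher in proximal clusters than elsewhere, in every library. A gene was counted where its log2 ratio, computed with 0.1 per 10000 added to both levels, was 1 or more and the higher level was at least 0.5 per 10000. By this rule 8 of 9 members were higher in proximal clusters in the library labelled Klf4deltaECNos3-/-, against 15.2% of the genes that passed the filter. The count was 7 of 9 in Nos3-/-, against 10% of genes, 9 of 9 in Klf4deltaEC, against 14.6%, and 9 of 9 in Klf4flox/flox, against 15.3%. Slc22a23 missed the limit in Klf4deltaECNos3-/- and in Nos3-/-, with log2 ratios of 0.95 and 0.96, and Slc22a5 missed it in Nos3-/- at 0.97. These misses depend on cluster 7, counted among the other clusters, where members stood at 54.3% to 105% of their proximal level. With cluster 7 left out of the other clusters, 9 of 9 members were counted in each library. The clusters were made from these nuclei and genes, so the counts are descriptions and not tests.

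**Figure D1:**
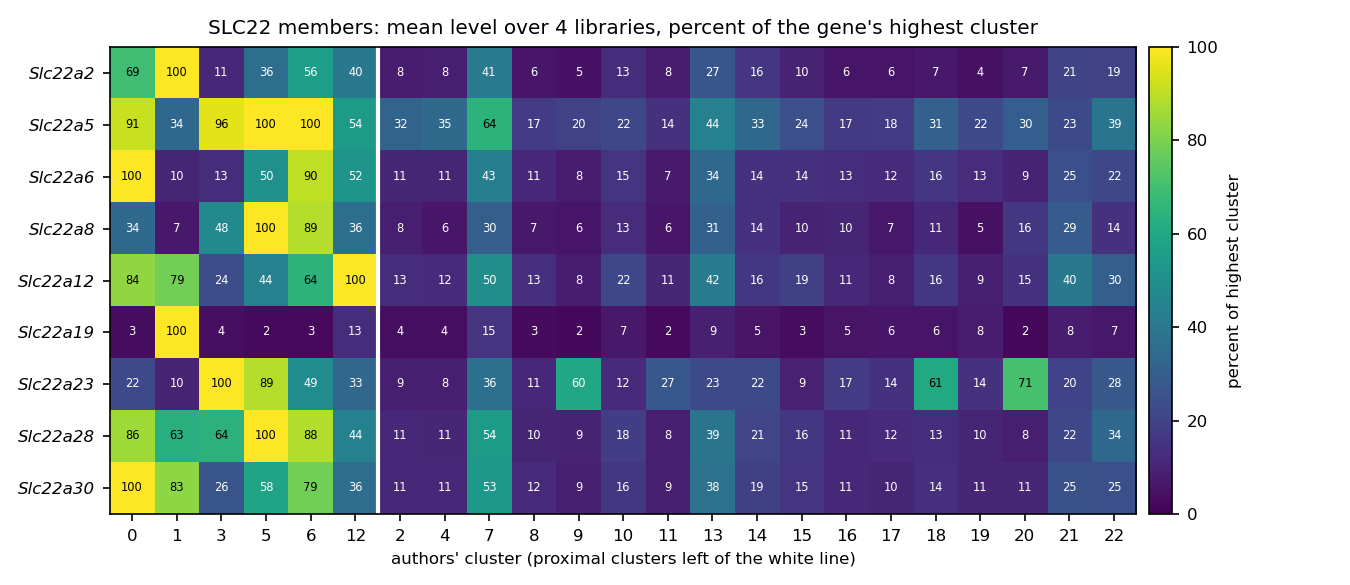
Mean level of each member in each of the 23 clusters, averaged over the 4 libraries and given as a percent of that gene's highest cluster, with the 6 proximal clusters left of the white line. Slc22a19 stood out in cluster 1, Slc22a6 in clusters 0 and 6, Slc22a8 in clusters 5 and 6, and Slc22a23 also in clusters 9, 18 and 20 outside the proximal tubule.

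Among the members that carry cations and carnitine, Slc22a2 encodes Oct2, the uptake carrier for organic cations such as creatinine and metformin on the blood side, which is higher in males than in females in rodents. Its level in cluster 1 was 2.55 in the library labelled Klf4deltaECNos3-/-, 2.34 in Nos3-/-, 3.02 in Klf4deltaEC and 3.05 in Klf4flox/flox. In cluster 3 it was 0.280 in Klf4deltaECNos3-/-, 0.360 in Nos3-/-, 0.397 in Klf4deltaEC and 0.194 in Klf4flox/flox. Slc22a2 was therefore high where S3 markers led and low where S1 markers led, in all 4 libraries. Cluster 0 came next after cluster 1, at a mean of 1.90, and the ranges of these 2 clusters over libraries did not overlap, whereas those of clusters 0 and 6 did.

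Slc22a5 encodes Octn2, the sodium-dependent carnitine carrier of the urine side whose loss causes carnitine deficiency in mice and humans. Its distribution was flat over 4 of the 6 proximal clusters and low in the S3-marked one. Clusters 5, 6, 3 and 0 averaged 4.62, 4.60, 4.42 and 4.22, with overlapping ranges over libraries. In cluster 1 Slc22a5 was at 1.94 in Klf4deltaECNos3-/-, 1.75 in Nos3-/-, 1.22 in Klf4deltaEC and 1.30 in Klf4flox/flox. It was also found outside the proximal clusters. In cluster 4, which carries thick ascending limb markers, it stood at 32.4% of its proximal level in Klf4deltaECNos3-/-, 54.0% in Nos3-/-, 36.9% in Klf4deltaEC and 54.2% in Klf4flox/flox. Of 13 proximal markers, Kap left out because it is spread over all clusters, the highest reached 17.8%, 46.0%, 22.5% and 17.8% of its proximal level there in the same libraries. Kap itself stood there at 48.4%, 59.3%, 104% and 91.4%. In clusters 2 and 19, which also carry thick ascending limb markers, Slc22a5 lay above all 13 in 3 libraries and in 1. The same held in 3 libraries for each of clusters 9, 14 and 20, so the spread was not particular to the thick ascending limb.

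The blood-side organic anion carriers Slc22a6 and Slc22a8 lie side by side in the genome but had different orders of clusters. Slc22a6 encodes Oat1, which takes up para-aminohippurate and many drugs in exchange for dicarboxylate. In cluster 0 it stood at 4.44 in Klf4deltaECNos3-/-, 4.21 in Nos3-/-, 5.61 in Klf4deltaEC and 3.62 in Klf4flox/flox, and in cluster 3 at 0.611, 0.660, 0.692 and 0.367 in these libraries in the same order. Slc22a8 encodes Oat3, which shares many of these substrates. It led in cluster 5, at 2.90 in Klf4deltaECNos3-/-, 4.24 in Nos3-/-, 3.64 in Klf4deltaEC and 3.21 in Klf4flox/flox, and stood in cluster 0 at 1.00, 1.42, 1.37 and 1.01.

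In the S1-marked cluster 3, Slc22a8 was at 1.49 in Klf4deltaECNos3-/-, 2.11 in Nos3-/-, 1.70 in Klf4deltaEC and 1.36 in Klf4flox/flox. As a percent of its own highest cluster it stood there at 47.6%, against 13% for Slc22a6. Both genes were low in the S3-marked cluster 1, at 6.96% of the highest cluster for Slc22a8 and 10.4% for Slc22a6. The mean levels of Slc22a6 in clusters 0 and 6 had overlapping ranges over libraries, as did those of Slc22a8 in clusters 5 and 6.

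Slc22a12 encodes Urat1, which reclaims urate from the urine side and is the target of uricosuric drugs. In clusters 12, 0 and 1 it averaged 2.95, 2.46 and 2.32, with overlapping ranges, against 0.694 in cluster 3. The highest value was in cluster 12 of the library labelled Klf4deltaECNos3-/-, at 6.71 (5.12 to 8.64), against 1.71 (1.24 to 2.31) in Nos3-/-, 2.61 (1.83 to 3.61) in Klf4deltaEC and 0.765 (0.334 to 1.5) in Klf4flox/flox. This was the widest spread of any member in that shallow cluster. Slc22a6 also stood higher in cluster 12 of Klf4deltaECNos3-/-, at 4.43, against 1.47 in Nos3-/-, 1.98 in Klf4deltaEC and 1.41 in Klf4flox/flox. Kap, a short and abundant transcript, stood there at 258 in Klf4deltaECNos3-/-, 26.6 in Nos3-/-, 121 in Klf4deltaEC and 98.1 in Klf4flox/flox, and the mitochondrial share was 2.69%, 1.02%, 1.82% and 2.21%. The part of these values in the level of Slc22a12 in cluster 12 was not tested.

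**Figure D2:**
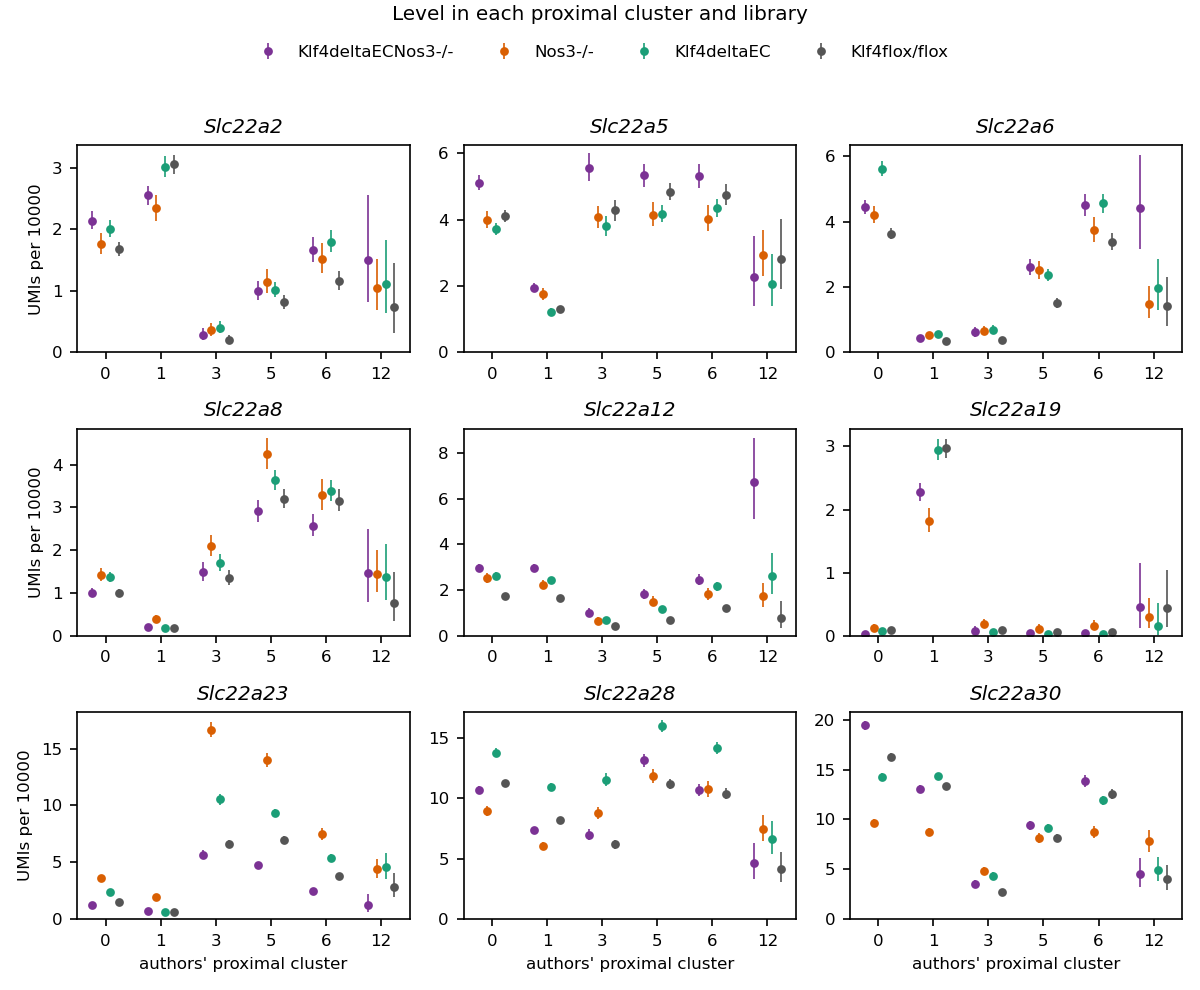
Level of each member in UMIs per 10000 in the 6 proximal clusters, with points for the libraries Klf4deltaECNos3-/-, Nos3-/-, Klf4deltaEC and Klf4flox/flox from left to right and bars for the 95% Poisson counting interval. Slc22a19 was at 1.82 to 2.97 in cluster 1 and no higher than 0.448 in the other 5, and Slc22a12 reached 6.71 in cluster 12 of Klf4deltaECNos3-/-.

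The rodent organic anion carriers of the family are Slc22a19, Slc22a28 and Slc22a30. Slc22a19 encodes Oat5, described in rat kidney on the urine side of the late proximal tubule, and it had the narrowest distribution. In cluster 1 its level was 2.27 in Klf4deltaECNos3-/-, 1.82 in Nos3-/-, 2.95 in Klf4deltaEC and 2.97 in Klf4flox/flox. In clusters 0, 3, 5 and 6 it did not exceed 0.182 in any library, and in cluster 12 it was 0.146 to 0.448. Its pooled proximal level depends on both the level in cluster 1 and the share of that cluster among proximal nuclei, which was 24.9% in Klf4deltaECNos3-/-, 21.7% in Nos3-/-, 22.2% in Klf4deltaEC and 24.3% in Klf4flox/flox.

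Slc22a28 and Slc22a30 belong to the rodent-specific group of organic anion carrier genes on chromosome 19, and their substrates are little described. Their orders of the proximal clusters differed. Slc22a28 in the S1-marked cluster 3 was at 6.99 in Klf4deltaECNos3-/-, 8.79 in Nos3-/-, 11.5 in Klf4deltaEC and 6.17 in Klf4flox/flox, and averaged 64.4% of its highest cluster, which was cluster 5. Slc22a30 in cluster 3 was at 3.56 in Klf4deltaECNos3-/-, 4.87 in Nos3-/-, 4.37 in Klf4deltaEC and 2.74 in Klf4flox/flox, and averaged 26.0% of its highest cluster, which was cluster 0. For Slc22a30 clusters 0, 1 and 6 averaged 14.9, 12.4 and 11.8 with overlapping ranges, and for Slc22a28 clusters 5, 6 and 0 averaged 13, 11.5 and 11.2, also with overlapping ranges.

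Slc22a23 is an orphan member with no established substrate, and it was the least tied to the proximal tubule. Within it, the level was highest in the S1-marked clusters. Cluster 3 stood at 5.67 in Klf4deltaECNos3-/-, 16.7 in Nos3-/-, 10.5 in Klf4deltaEC and 6.59 in Klf4flox/flox, while cluster 1 stood at 0.674, 1.93, 0.638 and 0.631 in these libraries in the same order. In cluster 9, which carries distal convoluted tubule markers, it was at 3.79 in Klf4deltaECNos3-/-, 9.82 in Nos3-/-, 4.33 in Klf4deltaEC and 5.58 in Klf4flox/flox. That is 150%, 124%, 83.7% and 162% of its proximal level in these libraries, where the highest of the 13 proximal markers reached 14.4%, 42.1%, 19.8% and 19.2%. In the thin limb-marked cluster 18 and the urothelium-marked cluster 20 it likewise lay above every proximal marker in all 4 libraries, at 68.0% to 262% and 131% to 233% of its proximal level, and in the connecting tubule-marked cluster 11 at 43.3% to 81.1%. The 7 members other than Slc22a5 and Slc22a23 lay above every proximal marker in all 4 libraries in 0 of the 17 other clusters.

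Genes with the most similar pattern over the 23 clusters were searched among 4960 genes by Pearson correlation of log2 levels averaged over libraries, a description in which clusters share libraries, depth and RNA carried over between nuclei. Slc22a2 was closest to Ak4 (r = 0.98), a mitochondrial adenylate kinase, Slc22a30 to Slc27a2 (0.99), a very long-chain fatty acid carrier and acyl-CoA synthetase, and Slc22a28 to Acsm2 (0.99), a medium-chain acyl-CoA synthetase. Slc22a12 was closest to Amacr (0.96), a racemase of branched fatty acid oxidation, and Slc22a6 to the cytochrome P450 gene Cyp2e1 (0.97), followed by the dicarboxylate cotransporter gene Slc13a3 (0.96). For Slc22a8 the closest gene was Tnfaip8 (0.96), for Slc22a5 it was G6pc (0.95), the last enzyme of gluconeogenesis, and for Slc22a19 it was Methig1 (0.98). Slc22a23 had no close match, with Prkag2, a subunit of AMP-activated kinase, at 0.73. Between members, r was highest for Slc22a2 and Slc22a30 at 0.97 and lowest for Slc22a23 and Slc22a19 at -0.28.

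Between libraries, members differed mostly by less than 2-fold in proximal nuclei. All 9 passed the filter in all 5 comparisons, which share libraries and are therefore not independent of each other. In Klf4deltaEC over Klf4flox/flox, 0 of 9 members were 2-fold higher or lower, against 0.518% of genes higher and 0.245% lower. In Nos3-/- over Klf4flox/flox, 1 of 9 was higher and 0 lower, against 1.49% and 2.02% of genes. In Klf4deltaECNos3-/- over Nos3-/-, 0 were higher and 1 lower, against 3.29% and 1.43% of genes, and in Klf4deltaECNos3-/- over Klf4deltaEC 0 were higher and 1 lower, against 0.973% and 0.896%. In Klf4deltaECNos3-/- over Klf4flox/flox, 1 was higher and 0 lower, against 0.618% and 0.283%. The member past the limit was Slc22a23 in each comparison with Nos3-/- and in Klf4deltaECNos3-/- over Klf4deltaEC, and Slc22a12 in Klf4deltaECNos3-/- over Klf4flox/flox.

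The median log2 ratio of the members was 0.31 in Klf4deltaEC over Klf4flox/flox, against -0.00 for all genes that passed, and -0.05 against 0.07 in Nos3-/- over Klf4flox/flox. It was 0.20 against 0.02 in Klf4deltaECNos3-/- over Nos3-/-, -0.10 against 0.10 in Klf4deltaECNos3-/- over Klf4deltaEC, and 0.14 against 0.08 in Klf4deltaECNos3-/- over Klf4flox/flox. Each of these medians covers 9 genes of both signs.

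**Figure D3:**
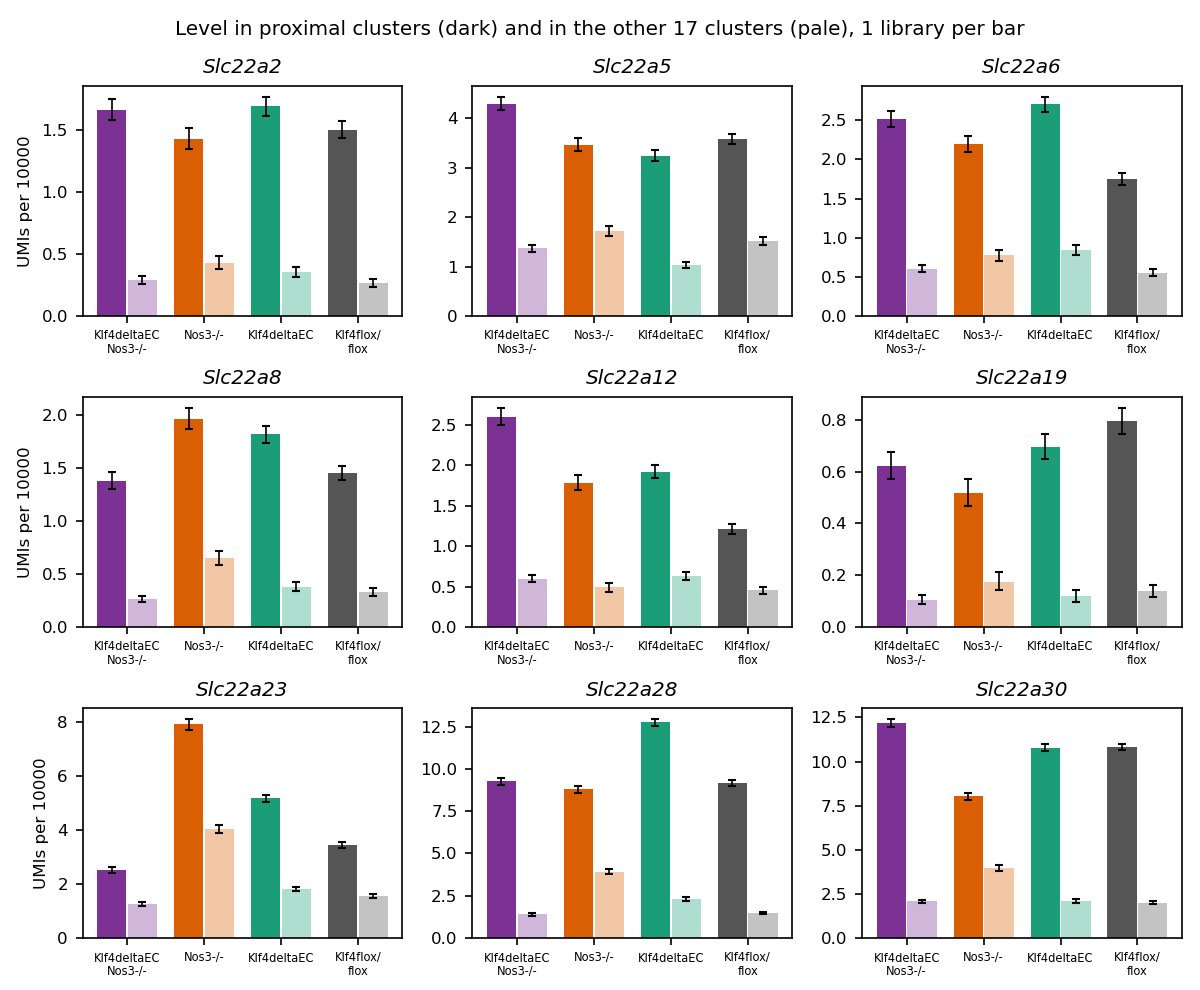
Level of each member in UMIs per 10000 in proximal clusters (dark bars) and in the other 17 clusters (pale bars), for the libraries Klf4deltaECNos3-/-, Nos3-/-, Klf4deltaEC and Klf4flox/flox from left to right, with 95% Poisson counting intervals. Slc22a23 ran from 2.53 in Klf4deltaECNos3-/- to 7.92 in Nos3-/-, and the pale bars of Slc22a28 and Slc22a30 were tallest in Nos3-/-.

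Slc22a23 differed most. Its proximal level was 2.53 (2.42 to 2.63) in the library labelled Klf4deltaECNos3-/-, 7.92 (7.72 to 8.11) in Nos3-/-, 5.17 (5.04 to 5.31) in Klf4deltaEC and 3.44 (3.34 to 3.54) in Klf4flox/flox. No 2 of these intervals overlapped. The log2 ratio was 1.18 (1.15 to 1.26) in Nos3-/- over Klf4flox/flox, -1.61 (-1.72 to -1.58) in Klf4deltaECNos3-/- over Nos3-/- and -1.01 (-1.10 to -0.96) in Klf4deltaECNos3-/- over Klf4deltaEC, and brackets, which are for the ratio without the added 0.1, can sit off its centre. In Klf4deltaEC over Klf4flox/flox it was 0.57 (0.53 to 0.65) and in Klf4deltaECNos3-/- over Klf4flox/flox -0.43 (-0.52 to -0.37). Without cluster 12 the ratio over Klf4deltaEC was -0.97, under the limit.

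The sign of the difference was also seen in clusters outside the proximal tubule. Slc22a23 was lower in 23 of 23 clusters in Klf4deltaECNos3-/- than in Nos3-/-, with log2 ratios of -2.84 to -0.16 and a median of -1.54, and higher in 22 of 23 in Nos3-/- than in Klf4flox/flox, with a median of 1.39. The exception was the thin limb-marked cluster 18, at 5.38 in Nos3-/- against 9.03 in Klf4flox/flox. Clusters of 1 library are not replicates, and the other clusters of Nos3-/- held more RNA of most proximal markers, though not of Kap, as given above. In its clusters 2, 4, 8 and 10, Slc22a23 stood at 26.8%, 27.1%, 28.6% and 35.8% of its proximal level, above 5 of 13 proximal markers. In clusters 9, 11, 18 and 20 it lay above all 13. The part of proximal RNA carried over into other clusters was not tested. Within proximal clusters, the log2 ratio of Klf4deltaECNos3-/- over Nos3-/- was -1.78 to -1.39 and that of Nos3-/- over Klf4flox/flox 0.61 to 1.47.

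Gene length moved with these comparisons. In Klf4deltaECNos3-/- over Nos3-/-, the 843 genes spanning 100 to 250 kb had a median log2 ratio of -0.15, against 0.37 for the 594 genes under 20 kb, and 1.54% of the longer group were lower by the limit. In Nos3-/- over Klf4flox/flox the same span classes had medians of 0.13 and -0.12, and 1.54% of the longer group were higher by the limit. Slc22a23, at 166 kb, had the sign of its span class in both and a larger ratio than its median. In Klf4deltaECNos3-/- over Klf4deltaEC, where Slc22a23 was at -1.01, the median of that span class was 0.01. The distal convoluted and connecting tubule markers given above were also higher in proximal nuclei of Nos3-/-. In that library Slc22a23 was highest in proximal cluster 3, at 16.7, above the other 22 clusters. The part of gene length and of RNA from other segments in the ratio was not tested.

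**Figure D4:**
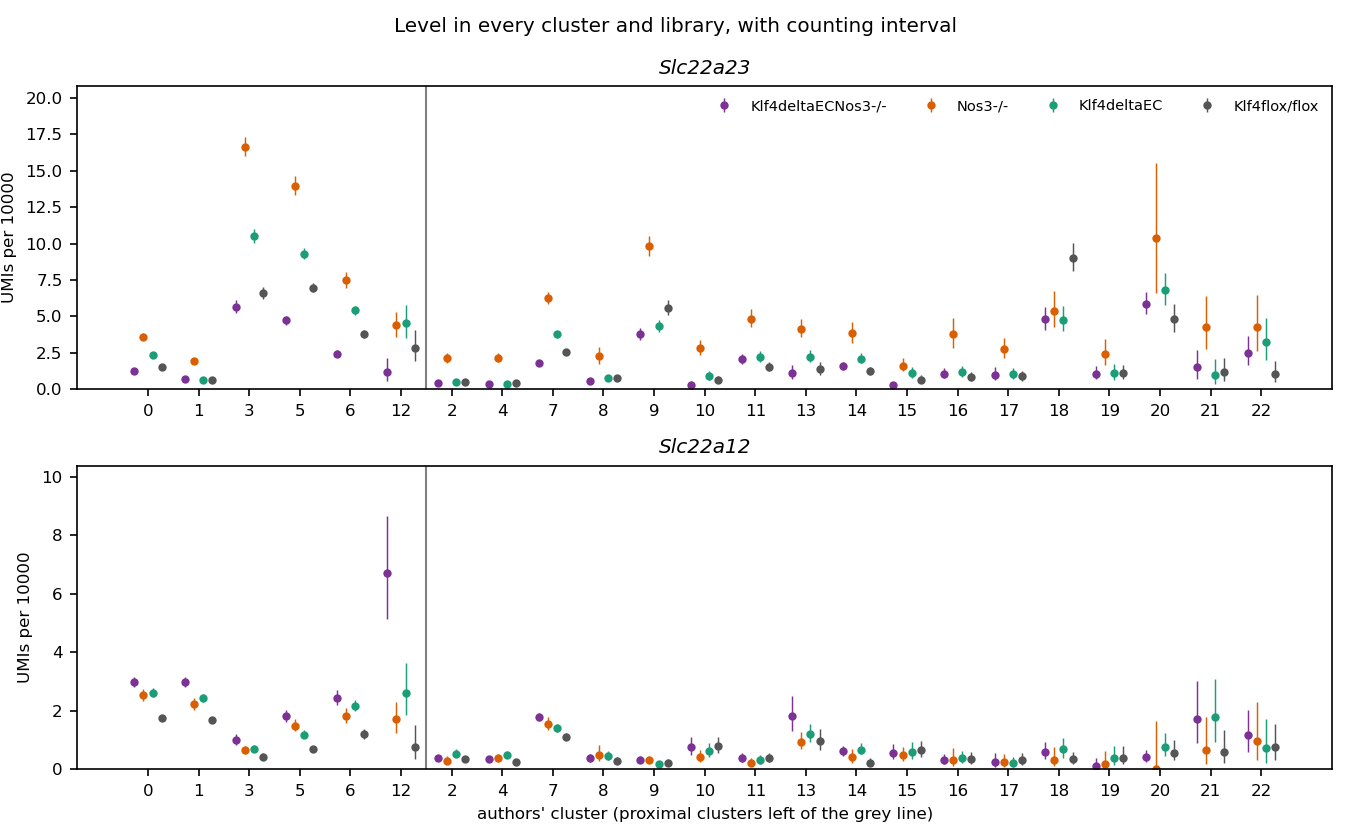
Level of Slc22a23 (top) and Slc22a12 (bottom) in UMIs per 10000 in all 23 clusters, proximal clusters left of the grey line, with points for Klf4deltaECNos3-/-, Nos3-/-, Klf4deltaEC and Klf4flox/flox from left to right and bars for the 95% Poisson counting interval. Slc22a23 was lower in Klf4deltaECNos3-/- than in Nos3-/- in 23 of 23 clusters, and Slc22a12 was higher in Klf4deltaECNos3-/- than in Klf4flox/flox in 6 of 6 proximal clusters.

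Slc22a12 was lowest in the control library. Its proximal level was 2.60 (2.50 to 2.71) in Klf4deltaECNos3-/-, 1.79 (1.70 to 1.88) in Nos3-/-, 1.92 (1.84 to 2.00) in Klf4deltaEC and 1.21 (1.15 to 1.27) in Klf4flox/flox. The log2 ratio was 0.62 (0.57 to 0.76) in Klf4deltaEC over Klf4flox/flox, 0.53 (0.46 to 0.67) in Nos3-/- over Klf4flox/flox and 1.05 (1.01 to 1.2) in Klf4deltaECNos3-/- over Klf4flox/flox. The sign was the same in 6 of 6 proximal clusters in all 5 comparisons, and in Klf4deltaECNos3-/- over Klf4flox/flox the ratios ran from 0.74 in cluster 0 to 2.98 in cluster 12. Without cluster 12 the pooled ratio was 0.89, under the limit. Genes under 20 kb, as Slc22a12 is, had a median of 0.24 in that comparison, and 2.37% of these 590 genes were higher by the limit.

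Slc22a6 was also lowest in the control library, at 2.51 (2.41 to 2.62) in Klf4deltaECNos3-/-, 2.19 (2.09 to 2.30) in Nos3-/-, 2.70 (2.61 to 2.80) in Klf4deltaEC and 1.75 (1.68 to 1.82) in Klf4flox/flox. The log2 ratio over Klf4flox/flox was 0.50 (0.44 to 0.61) for Klf4deltaECNos3-/-, 0.31 (0.23 to 0.42) for Nos3-/- and 0.60 (0.55 to 0.71) for Klf4deltaEC, above 0 in 6 of 6 proximal clusters each time. None reached 2-fold. Its neighbour Slc22a8 had another order, at 1.38 (1.30 to 1.46) in Klf4deltaECNos3-/-, 1.97 (1.87 to 2.07) in Nos3-/-, 1.82 (1.74 to 1.90) in Klf4deltaEC and 1.45 (1.39 to 1.52) in Klf4flox/flox. Here the intervals of Klf4deltaECNos3-/- and Klf4flox/flox overlapped, and those of Nos3-/- and Klf4deltaEC did too. In Klf4deltaECNos3-/- over Nos3-/- the log2 ratio of Slc22a8 was -0.48 (-0.62 to -0.40), below 0 in 5 of 6 proximal clusters, the exception being cluster 12 at 0.02.

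**Figure D5:**
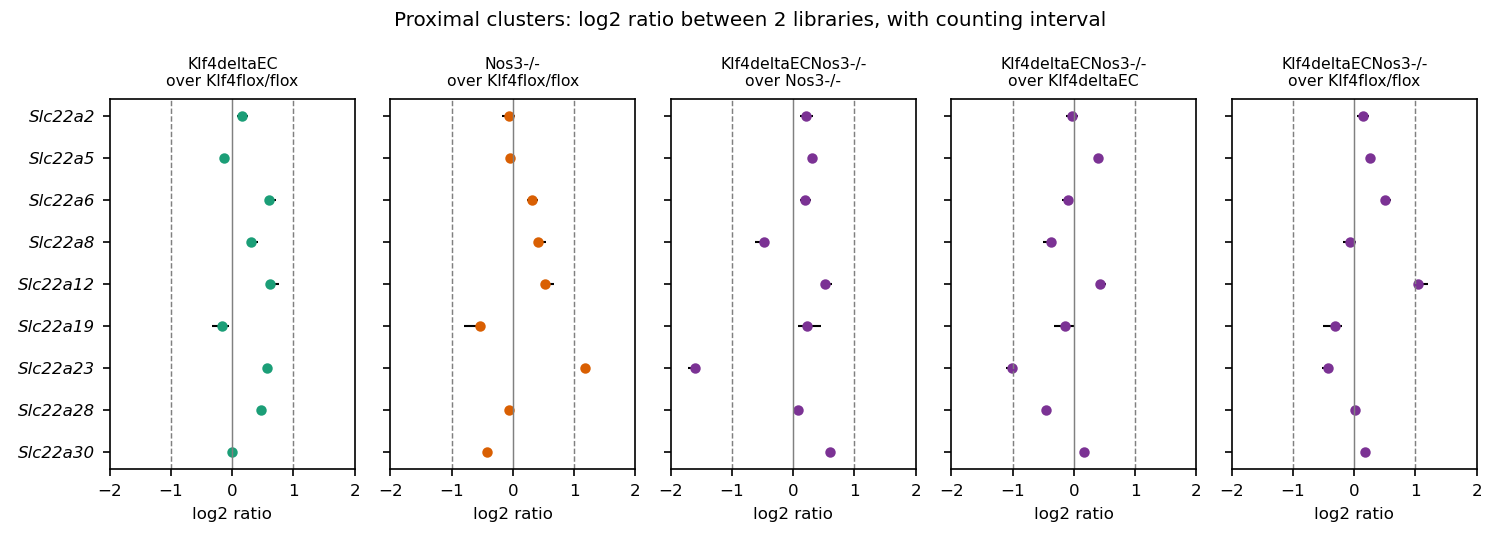
Log2 ratio of the proximal level of each member in the 5 comparisons between libraries, each named as 1 library over another, with lines for the 95% counting interval of the plain ratio and dashed lines at 2-fold. Slc22a23 lay past the dashed lines in 3 comparisons and Slc22a12 in 1, and the other 7 members lay inside them in all 5.

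The carnitine carrier gene Slc22a5 was at 4.30 (4.16 to 4.43) in Klf4deltaECNos3-/-, 3.47 (3.34 to 3.6) in Nos3-/-, 3.24 (3.14 to 3.35) in Klf4deltaEC and 3.58 (3.48 to 3.69) in Klf4flox/flox. It was highest in Klf4deltaECNos3-/-, and the intervals of Nos3-/- and Klf4flox/flox overlapped. The log2 ratio of Klf4deltaECNos3-/- over Klf4deltaEC was 0.39 (0.34 to 0.47), above 0 in 6 of 6 proximal clusters, and that of Klf4deltaEC over Klf4flox/flox was -0.14 (-0.21 to -0.08), above 0 in 0 of 6. The cation carrier gene Slc22a2 varied least in its pooled level, at 1.66 (1.58 to 1.75) in Klf4deltaECNos3-/-, 1.43 (1.35 to 1.52) in Nos3-/-, 1.69 (1.62 to 1.77) in Klf4deltaEC and 1.5 (1.44 to 1.57) in Klf4flox/flox, with log2 ratios between -0.07 and 0.20 over the 5 comparisons. Single clusters of Slc22a2 moved more and went both ways. In Nos3-/- over Klf4flox/flox the log2 ratio was -0.37 (-0.53 to -0.24) in cluster 1 and 0.65 (0.23 to 1.57) in cluster 3. It was above 0 in 5 of 6 proximal clusters, with a median of 0.40. In Klf4deltaEC over Klf4flox/flox it was also above 0 in 5 of 6, with a median of 0.42.

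Slc22a28 was at 9.27 (9.08 to 9.47) in Klf4deltaECNos3-/-, 8.80 (8.59 to 9.01) in Nos3-/-, 12.8 (12.6 to 13) in Klf4deltaEC and 9.17 (9.0 to 9.34) in Klf4flox/flox. It was highest in Klf4deltaEC, with a log2 ratio of 0.47 (0.44 to 0.51) over Klf4flox/flox and of -0.46 (-0.50 to -0.42) for Klf4deltaECNos3-/- over Klf4deltaEC, and each sign held in 6 of 6 proximal clusters. Slc22a30 was at 12.2 (12 to 12.4) in Klf4deltaECNos3-/-, 8.02 (7.82 to 8.22) in Nos3-/-, 10.8 (10.6 to 11) in Klf4deltaEC and 10.8 (10.6 to 11) in Klf4flox/flox. Its pooled level was lowest in Nos3-/-, but the clusters went both ways. The log2 ratio of Nos3-/- over Klf4flox/flox was -0.74 (-0.82 to -0.68) in cluster 0 and 0.81 (0.66 to 1.00) in cluster 3, and in clusters 3 and 12 Nos3-/- was the highest library. In Klf4deltaEC over Klf4flox/flox the pooled ratio was -0.00 (-0.04 to 0.03), with -0.19 (-0.24 to -0.14) in cluster 0 and 0.65 (0.50 to 0.84) in cluster 3. Both genes were spread more widely in Nos3-/-. The level of Slc22a28 in the other 17 clusters was 44.7% of its proximal level in Nos3-/-, against 15% in Klf4deltaECNos3-/-, 18% in Klf4deltaEC and 16.1% in Klf4flox/flox, and Lrp2 was spread alike, as given above.

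Slc22a19 was at 0.623 (0.573 to 0.677) in Klf4deltaECNos3-/-, 0.518 (0.468 to 0.570) in Nos3-/-, 0.697 (0.650 to 0.746) in Klf4deltaEC and 0.796 (0.747 to 0.847) in Klf4flox/flox. It was the only member highest in the control library. In Nos3-/- over Klf4flox/flox its log2 ratio was -0.54 (-0.79 to -0.45) overall and -0.67 in cluster 1, the cluster that holds most of it, whereas 4 of the 6 clusters, where it was low, lay above 0.

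Among 16 other SLC22 genes, 15 were in the table and 5 or 6 passed the filter in each comparison. Slc22a4, a carnitine and ergothioneine carrier gene of the same branch as Slc22a5, was at 1.2 in Klf4deltaECNos3-/- and 2.86 in Nos3-/-, a log2 ratio of -1.19 (-1.36 to -1.15). Slc22a7, which encodes the organic anion carrier Oat2, was at 0.580 in Klf4deltaECNos3-/- and 0.202 in Klf4deltaEC, a log2 ratio of 1.17 (1.29 to 1.75 without the added 0.1). No other gene of this list passed the limit in any comparison.

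Of 5 cotransporter genes for dicarboxylate, monocarboxylate or sulfate, all of which passed the filter, 2 were lower in Klf4deltaECNos3-/- than in Nos3-/-. Slc13a3, the sodium-coupled supplier of dicarboxylate on the blood side, was at 3.47 in Klf4deltaECNos3-/-, 7.21 in Nos3-/-, 5.14 in Klf4deltaEC and 3.79 in Klf4flox/flox, and its log2 ratio in that comparison was -1.03 (-1.12 to -0.99). Slc13a2, its urine-side relative that reclaims citrate, was at 1.01 in Klf4deltaECNos3-/-, 3.2 in Nos3-/-, 1.54 in Klf4deltaEC and 2.14 in Klf4flox/flox, with -1.57 (-1.77 to -1.55) over Nos3-/- and -1.01 (-1.19 to -0.98) over Klf4flox/flox. Slc5a12, a lactate cotransporter gene and S1 marker, was at 9.29 in Nos3-/- and 27.7 in Klf4flox/flox, a log2 ratio of -1.56 (-1.61 to -1.54).

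Of 15 partner transporters, which include the urine-side cation and anion exporters and the urate carriers, 10 passed the filter and 0 lay past the limit in any of the 5 comparisons. The outermost were Slco1a1, an organic anion polypeptide carrier gene, at -0.77 in Nos3-/- over Klf4flox/flox and 0.83 in Klf4deltaECNos3-/- over Nos3-/-, and Slc16a9, a monocarboxylate carrier gene, at -0.87 in Klf4deltaECNos3-/- over Klf4flox/flox. Of 7 genes of carnitine handling, 3 to 5 passed and 0 lay past the limit in any comparison. Of 11 regulators and scaffolds, 8 to 11 passed, and the prolactin receptor gene Prlr was past the limit in 2 comparisons, at 0.562 in Nos3-/- against 0.146 in Klf4flox/flox, a log2 ratio of 1.43, and at 0.133 in Klf4deltaECNos3-/- against 0.562 in Nos3-/-, a log2 ratio of -1.50. Hnf4a, a transcription factor of proximal identity, was at 5.00 in Klf4deltaECNos3-/-, 4.15 in Nos3-/-, 4.46 in Klf4deltaEC and 4.05 in Klf4flox/flox, and Pdzk1, the scaffold that binds Urat1 on the urine side, at 6.49, 10.6, 9.39 and 8.08. A link between the levels of Pdzk1 and Slc22a12 was not tested.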

How the data were processed

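Nuclear RNA of kidney cortex was measured in 4 libraries, 1 per genotype. The submitters' processing notes name mm10, Cell Ranger and Seurat without versions, and clustering settings and doublet treatment are not stated in the sources used here. As deposited, the normalized signal covers 21046 genes in 92 columns, 1 for each of 23 clusters in each library, and every column sums to 10000, so a value is a mean over nuclei of UMIs per 10000. Columns were matched to libraries through their titles, and 0 were left over.

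Nuclei numbers and depth were inferred: a gene with 1 UMI in 1 nucleus has the value 10000 divided by that nucleus's UMI total and by how many nuclei the cluster has, and the largest number that divided at least 85% of the reciprocals of low values was taken (relative tolerance 3e-13). This was tested on simulated columns. Proximal levels are means over clusters weighted by nuclei. Ratios are log2 with 0.1 per 10000 added, for genes with the higher library at 0.5 or more, with a limit of 2-fold. With 1 library per genotype no test was possible, and p-values are not given. Counting intervals use effective UMIs, the harmonic-mean UMI total times nuclei, and leave out differences between mice and preparations. Fewer molecules per nucleus and fewer expressing nuclei cannot be told apart in cluster means.

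All 9 members are described. Members, marker lists, gene lists and motifs were chosen with earlier results of these data known. Named beside them are, per member, the most similar genes by correlation, and list genes past the limit. Other pseudocounts, no filter, other weights, rescaling by the median ratio, leaving out cluster 12, UMIs outside mitochondrial genes and a limit of 1.5-fold were tried. Python 3.11.15, numpy 2.4.6, pandas, scipy and Biopython were used.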

Additional observations from a re-analysis of the deposited data

Results flagged for a closer look

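For 4 members the ratio of the libraries labelled with and without the endothelial Klf4 deletion pointed in opposite directions on the 2 Nos3 labels, each beyond its counting interval. With 1 library per genotype the difference was not tested. The difference was taken as the log2 ratio of Klf4deltaECNos3-/- over Nos3-/- minus that of Klf4deltaEC over Klf4flox/flox. For Slc22a23 it was -2.18, from -1.61 and 0.57. For Slc22a8 it was -0.79, from -0.48 and 0.31. For Slc22a5 it was 0.44, from 0.30 and -0.14, and for Slc22a19 it was 0.40, from 0.23 and -0.17. In cluster 1, where Slc22a19 was highest, the opposite signs did not hold beyond counting: the log2 ratio was 0.30 (0.14 to 0.49) for Klf4deltaECNos3-/- over Nos3-/- and -0.01 (-0.12 to 0.10) for Klf4deltaEC over Klf4flox/flox. The Klf4 level in endothelial nuclei did not show the labelled deletion in either pair of libraries, and the library labelled Nos3-/- had the lowest depth and mitochondrial share. Their part in these differences was not tested.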

How the results depend on the processing

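No paired analysis was possible because each genotype has 1 library. With a limit of 1.5-fold, 2 members passed in Klf4deltaEC over Klf4flox/flox (Slc22a6 and Slc22a12, both higher) and 2 in Klf4deltaECNos3-/- over Nos3-/- (Slc22a23 lower and Slc22a30 higher). The share of all genes past 1.5-fold was not taken, so these counts cannot be set against a background. With 0.5 per 10000 added in place of 0.1, or without cluster 12, 0 members passed in Klf4deltaECNos3-/- over Klf4deltaEC and 0 in Klf4deltaECNos3-/- over Klf4flox/flox. The log2 ratio of Slc22a23 over Klf4deltaEC was then -0.91 and -0.97, and that of Slc22a12 over Klf4flox/flox 0.86 and 0.89. With rescaling by the median ratio 0 members passed in Klf4deltaECNos3-/- over Klf4flox/flox, where Slc22a12 was at 0.97, and with equal weights for the 6 proximal clusters it was at 1.39. Slc22a23 stayed past the limit in Nos3-/- over Klf4flox/flox and in Klf4deltaECNos3-/- over Nos3-/- under the 6 other settings tried, at 1.08 to 1.21 and -1.63 to -1.48. The count of members higher in proximal clusters was 5 to 9 of 9 over the libraries and alternatives. Moves were compared with the distance from the middle to the end of the counting interval. Over all members, comparisons and these 6 settings, 223 of 270 log2 ratios moved by no more than that, 47 moved further, and 264 kept their sign. The setting without a filter gave 45 of the 270 and could not change a ratio, because all 9 members passed the filter. Depth limits cluster 12, where 3 UMIs correspond to 0.119 to 0.336 per 10000, and values under that level are not distinguishable from 0 there.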
